A study of Mus musculus with 52 samples.

Results

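Beta-catenin stabilization in endothelial cells (ECs) was followed here in 8 genes, Car4, Bche, Myof, Cachd1, Fbln2, Crybg1, Fn1 and Prom1, out of 33099 genes that had reads in at least one RNA-seq library. The genes were chosen by their RNA levels in GFP-positive cells, as genes whose fold rise with stabilization, a ratio to WT, was larger in ECs of the anterior pituitary than in ECs of the posterior pituitary, so their values in these lobes are given as a description. Numbers of the 8 genes called in these lobes restate that choice and are given only beside the share of all genes called, and tests of the 8 genes are given for other tissues and fractions. In the fit over all genes, 13 genes were called higher in the anterior minus posterior response (0.0726% of 17915 genes tested, with 0.0558% called lower), and 6 of the 8, all but Fn1 and Prom1, are among them, which follows from the choice and is no result about them. That number of the 8 was 3 to 8 and the number of all genes, 23, was 14 to 448 over other settings. The levels in WT ECs, in parenchymal cells and in the brain, and the chromatin around the genes, follow.

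The data were 52 libraries in 26 groups of 2, from adult male mice. ECs were sorted as GFP-positive cells from cerebellum, anterior pituitary and posterior pituitary of WT mice, which carried Tie2-GFP and no Cre, and of stabilized mice, which carried Tie2-GFP; Pdgfb-CreER; BcatEx3fl and received 4-hydroxytamoxifen (4HT). Tie2-GFP marks ECs, and Pdgfb-CreER is a tamoxifen-inducible Cre that acts in ECs. The BcatEx3fl allele loses the exon that targets beta-catenin for degradation. RNA was sequenced from GFP-positive and GFP-negative cells, giving 24 libraries, and ATAC-seq, which maps open chromatin, was done on GFP-positive cells, giving 12 libraries. The other 16 libraries came from RiboTag mice, in which Cre tags ribosomes of ECs so that their RNA can be pulled down: bound (pulled-down) and input (whole-tissue) RNA of choroid plexus and cerebral cortex, from RiboTag; Pdgfb-CreER controls, here called WT, and RiboTag; Pdgfb-CreER; BcatEx3fl mice. Every RiboTag mouse therefore carried the Cre, whereas the sorted WT mice did not, so that genotype, Cre and 4HT cannot be told apart in the sorted comparison. Tissue of several animals was pooled for the pituitary and the choroid plexus, and the study's methods call the replicates biological. The labels tie no replicate number to an animal. The p-values rest on the spread between the 2 libraries of a group, estimated jointly over all groups of a fit and not for the compared groups alone.

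In WT brain, ECs receive a constant Wnt signal that acts through beta-catenin and the TCF/LEF transcription factors and maintains the blood-brain barrier, whereas fenestrated ECs of the pituitary and the choroid plexus receive little of it. The 8 genes encode proteins of different kinds. Car4 encodes carbonic anhydrase 4, an enzyme anchored on the luminal face of capillaries. Bche encodes butyrylcholinesterase, a secreted esterase. Myof encodes myoferlin, a membrane-repair protein of the ferlin family, Cachd1 a transmembrane protein related to the alpha2delta subunits of calcium channels, and Prom1 the pentaspan membrane protein prominin 1 (CD133). Fn1 encodes fibronectin and Fbln2 encodes fibulin 2, both proteins of the extracellular matrix. Crybg1 encodes a protein with crystallin beta-gamma domains. On GRCm38 the genes lie on separate chromosomes, at chr11:84957786-84966044 (Car4), chr4:100776675-101029220 (Cachd1) and chr6:91212455-91272540 (Fbln2) on the plus strand, and at chr3:73635808-73708415 (Bche), chr19:37899036-38043577 (Myof), chr10:43950636-44148853 (Crybg1), chr1:71585520-71653200 (Fn1) and chr5:43993620-44102032 (Prom1) on the minus strand.

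Regions near Car4, Myof, Cachd1, Bche and Prom1 are shown first, because each held an ATAC-seq peak in both stabilized anterior pituitary libraries and in both WT cerebellum libraries, and none in WT anterior pituitary ECs. Of the 8 regions of this kind, 6 are shown, and the other 2 lie in Prom1 and hold no core. Each is a window of 201 bases centred on the strongest ATAC-seq summit, read 5′ to 3′ on the plus strand of GRCm38. Capitals mark a TCF/LEF core, TTCAAAG or ATCAAAG, searched on both strands, so that CTTTGAT is ATCAAAG on the minus strand. The Car4 window lies upstream of the gene, with its summit 1363 bases before the start, and holds 2 cores. The window in Myof and the first of the windows in Cachd1 are intronic and hold 1 core each, whereas the second Cachd1 window and those in Bche and Prom1, intronic too, hold none of these letters.
Car4, chr11:84956323-84956523: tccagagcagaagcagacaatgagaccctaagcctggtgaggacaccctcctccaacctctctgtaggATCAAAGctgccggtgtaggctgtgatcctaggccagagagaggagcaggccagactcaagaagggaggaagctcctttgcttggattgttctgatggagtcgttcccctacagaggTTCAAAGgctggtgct
Myof, chr19:38026478-38026678: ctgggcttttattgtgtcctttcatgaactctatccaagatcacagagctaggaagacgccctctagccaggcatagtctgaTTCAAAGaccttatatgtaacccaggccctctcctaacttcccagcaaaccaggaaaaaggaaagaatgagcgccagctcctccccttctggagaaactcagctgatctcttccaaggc
Cachd1, chr4:100795571-100795771: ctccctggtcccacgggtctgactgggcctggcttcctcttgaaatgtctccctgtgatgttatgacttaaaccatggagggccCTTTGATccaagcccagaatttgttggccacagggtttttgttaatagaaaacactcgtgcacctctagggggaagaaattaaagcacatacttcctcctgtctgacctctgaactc
Cachd1 (second), chr4:100811396-100811596: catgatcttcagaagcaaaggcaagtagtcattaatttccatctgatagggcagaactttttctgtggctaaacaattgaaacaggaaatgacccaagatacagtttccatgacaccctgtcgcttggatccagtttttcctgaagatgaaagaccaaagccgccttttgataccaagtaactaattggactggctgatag
Bche, chr3:73673458-73673658: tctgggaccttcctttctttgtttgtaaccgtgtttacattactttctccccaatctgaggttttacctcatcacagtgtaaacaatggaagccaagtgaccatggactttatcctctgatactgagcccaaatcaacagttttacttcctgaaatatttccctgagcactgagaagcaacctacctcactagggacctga
Prom1, chr5:44050277-44050477: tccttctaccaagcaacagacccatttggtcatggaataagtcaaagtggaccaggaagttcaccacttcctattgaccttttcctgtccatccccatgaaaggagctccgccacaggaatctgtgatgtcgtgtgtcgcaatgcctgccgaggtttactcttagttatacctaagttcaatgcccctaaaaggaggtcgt

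Total estimated reads per RNA library ran from 6409013 to 37529274 (median 21838321), and from 17260078 to 31604109 in the 8 pituitary GFP-positive libraries. Among the labels, 1 library stands apart: replicate 2 of the stabilized anterior pituitary GFP-positive cells is called anterior in its title and source but posterior in its tissue field, and it was used as anterior, with the ratios given without it as well. Endothelial markers (10 genes including Pecam1, Cdh5 and Tek) were present in every GFP-positive group, with summed TPM (transcript levels corrected for length and scaled to a total of 1e+06 per library) of 3123 to 4766 in WT and 2908 to 3445 in stabilized anterior pituitary. The GFP-positive anterior pituitary cells also held endocrine RNA such as Gh and Prl, with summed TPM of 4410 to 6869 in WT and 4094 to 4668 in stabilized libraries. Macrophage and leukocyte markers moved with the genotype, from a summed 24.03 to 27.1 TPM in WT to 165 to 221 TPM in stabilized anterior pituitary (1 of 8 called higher) and from 1.11 to 10.8 TPM to 208 to 256 TPM in posterior pituitary (3 of 8 called higher), with Cd52 at 0 in both WT groups. Choroid plexus epithelium markers summed to 1.90 to 5.76 TPM in WT and 50.1 to 80.8 TPM in stabilized anterior pituitary (0 of 6 called by edgeR, 1 with an unadjusted p under the threshold and 1 called by DESeq2), with Kcnj13 at 0. Arterial markers went from 39.9 to 65.2 up to 83.0 to 92.5 TPM there (2 of 7 called higher) and venous markers from 39.3 to 65.1 up to 81.9 to 97.9 TPM (2 of 6 called higher). Mural markers, genes of pericytes and smooth muscle, were at 188 to 224 TPM in WT and 173 to 253 TPM in stabilized anterior pituitary (1 of 9 called higher), and went from 84.3 to 158 down to 47.9 to 54.1 TPM in posterior pituitary (1 called higher and 1 lower). In the anterior minus posterior response 2 of 9 mural, 2 of 6 venous and 1 of 7 arterial markers were called higher. Endothelial markers in posterior pituitary were at 4221 to 6302 TPM in WT and 1831 to 2175 TPM in stabilized libraries (2 of 10 called lower). The part of these RNAs in the results below was not tested, and fewer cells of a type cannot be told apart from less RNA per cell in such libraries.

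In WT anterior pituitary ECs the 8 genes were at or near the limit of detection, except Fn1 and, in replicate 2, Prom1. Levels are given as rpm, the reads of a gene scaled to a library total of 1e+06, which compare a gene with itself across libraries. Bche and Myof had 0 reads in both WT anterior pituitary libraries, where 3 reads over the group are taken as the limit that a count of 0 allows. Car4 had 0 and 3 reads, and Crybg1 had 1 and 2. Fbln2 had 2 and 5 reads (0.0633 and 0.168 rpm) and Cachd1 had 6 and 8 reads (0.190 and 0.268 rpm). These 6 genes therefore rest on at most 14 reads over the WT group, and their fold changes carry wide counting errors. Prom1 had 4 and 51 reads (0.127 and 1.71 rpm), a wide gap between replicates. Fn1 had 279 and 153 reads (8.83 and 5.13 rpm).

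With stabilization, every library of the anterior pituitary exceeded both WT libraries for all 8 genes, a pattern shown by 27.2% of the genes tested and that the choice of genes used (16.6% were lower in the same way). Fn1 reached 716 and 1212 rpm. Prom1 reached 45.5 and 119 rpm and Myof 55.4 and 58.8 rpm. Car4 reached 29.5 and 40.6 rpm. All 4 stood above every WT anterior pituitary value of the same gene. Cachd1 reached 16.3 and 29.2 rpm, Crybg1 10.1 and 4.72 rpm, and Bche 1.52 and 5.06 rpm. Fbln2 reached 3.25 and 2.70 rpm. Bche and Fbln2 rest on 156 and 144 reads over the stabilized group. Between genes, where only a length-corrected level can be compared, the TPM in stabilized anterior pituitary was highest for Fn1 (199 and 281), followed by Car4 (50.1 and 55.7) and Prom1 (30.4 and 69.5), which overlap, then by Myof (14.3 and 5.51) and Cachd1 (8.75 and 3.50), which overlap too. Crybg1 (0.944 and 0.374), Bche (0.179 and 0.828) and Fbln2 (0.321 and 0.459) overlapped at the lower end.

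**Figure D1:**
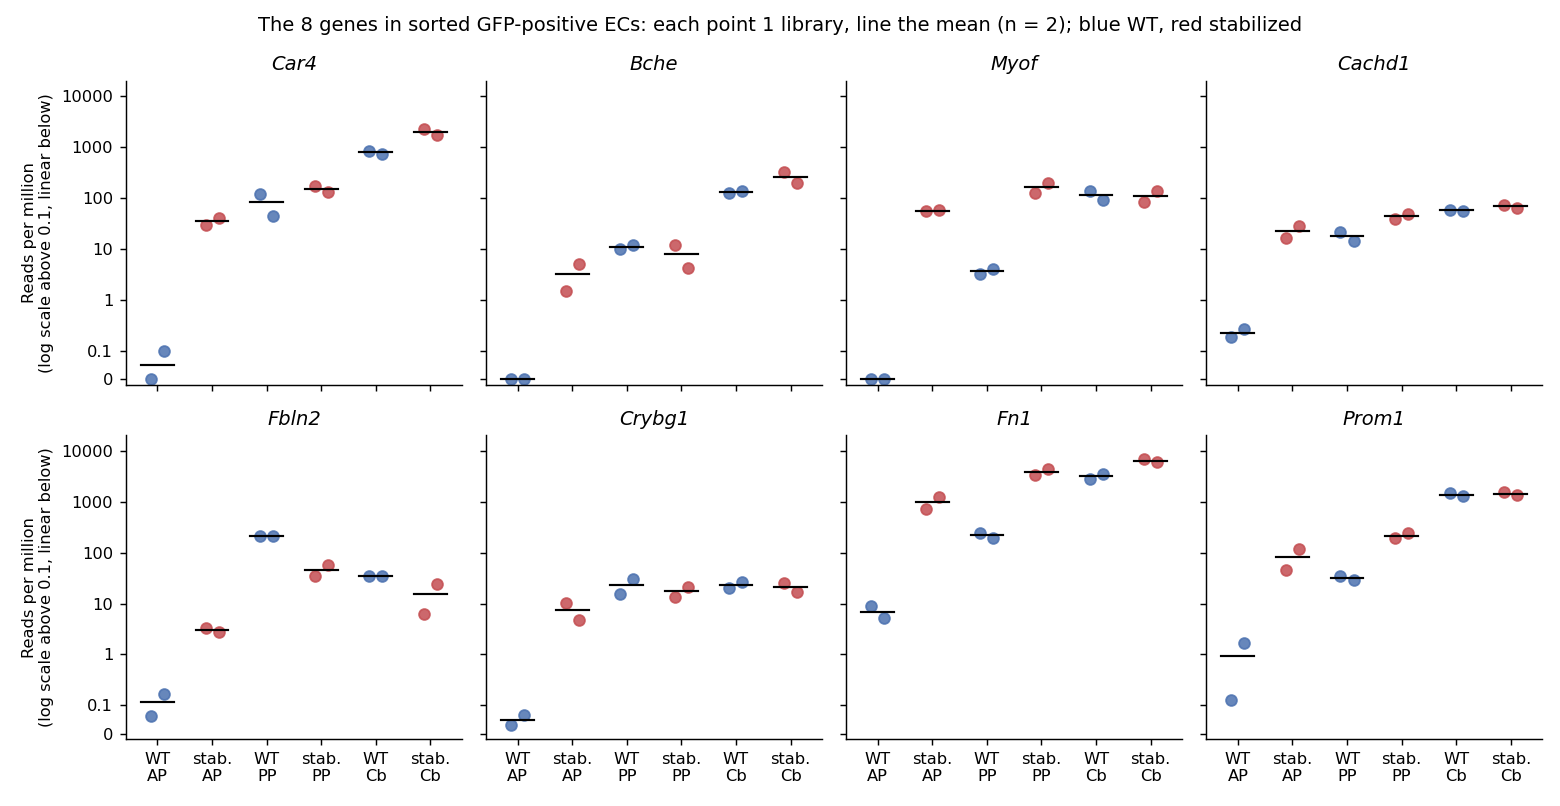
Level in rpm (vertical axis, log scale above 0.1 and linear below) of each gene in sorted GFP-positive ECs of anterior pituitary (AP), posterior pituitary (PP) and cerebellum (Cb), with 1 point per library, a line at the mean of 2 libraries, WT in blue and stabilized (stab.) in red. In every panel the WT AP points sit lowest, at 0 for Bche and Myof, and the stabilized AP points sit above them.

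Expressed as the ratio of stabilized to WT rpm, with a 95% interval that covers counting error only, stabilized anterior pituitary was at least 1168-fold higher for Myof and at least 66.2-fold higher for Bche, against the floor of 3 reads. The ratio was 714 for Car4 (244 to 3466) and 154 for Crybg1 (52.3 to 751), wide intervals since WT held 3 reads of each. It was 136 for Fn1 (124 to 150), 98.9 for Cachd1 (58.7 to 181), 90.7 for Prom1 (69.5 to 121) and 26.2 for Fbln2 (12.4 to 66.3). Without the library of conflicting labels the ratios were 604 for Car4, at least 1134 for Myof, at least 31.2 for Bche, 208 for Crybg1, 102 for Fn1, 71.6 for Cachd1, 50.8 for Prom1 and 28.5 for Fbln2. Prom1 also turned on its WT libraries, with a ratio of 47.5 without WT replicate 1 and 641 without WT replicate 2. Without WT replicate 1 the ratio was 347 for Car4, at least 567 for Myof and at least 32.2 for Bche, and without WT replicate 2 it was at least 367 for Car4, at least 601 for Myof, at least 34.1 for Bche, 47.2 for Fbln2 and 238 for Crybg1. Without stabilized replicate 1 it was 96.7 for Crybg1 and at least 104 for Bche. Each of these exceeded the ratio of the same gene in the posterior pituitary given below.

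WT posterior pituitary ECs already held 121 and 44.7 rpm of Car4, 244 and 198 rpm of Fn1, and 209.98 and 208 rpm of Fbln2. All 8 genes were higher in both WT posterior than in both WT anterior libraries. The WT anterior level was a median of 0.137% of the WT posterior level (0 to 3.16%). The choice of genes by a ratio to WT favours a low WT anterior level. The share of all genes that differ in this way is not given here, and nothing is read from this count. The other genes held 35.3 and 29.4 rpm (Prom1), 21.5 and 14.4 rpm (Cachd1), 15.4 and 30.8 rpm (Crybg1), 10.1 and 12.3 rpm (Bche) and 3.20 and 4.17 rpm (Myof).

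After stabilization of posterior pituitary ECs, Myof reached 129 and 204 rpm, 47.2-fold over WT (40.5 to 55.5), and Fn1 reached 3279 and 4446 rpm, 17.2-fold over WT (16.8 to 17.5). Prom1 reached 190 and 241 rpm (6.55-fold, 6.203 to 6.91). These 3 genes, a membrane-repair protein, fibronectin and prominin 1, were higher without overlap in both lobes. Cachd1 reached 39.9 and 48.6 rpm (2.36-fold) and Car4 172 and 133 rpm (1.64-fold, or 3.39-fold without WT replicate 1), with no overlap with WT in rpm. The mean TPM of Cachd1 went the other way, from 18.4 (34.8 and 2.07) to 5.56 (4.37 and 6.75). Bche, at 12.1 and 4.24 rpm, and Crybg1, at 13.6 and 21.4 rpm, overlapped WT, with ratios of 0.731 and 0.834. Fbln2 went the other way, to 35.5 and 56.0 rpm, 4.53-fold lower than WT. Its TPM fell further, from 80.4 and 34.6 to 4.81 and 5.19. Fibroblast markers had a median log2 fold change of -2.16 there (0 of 6 called), and their part in this fall was not tested. In all, 5 of the 8 were higher without overlap and 1 was lower, where 18.8% and 23.8% of genes tested were so, in rpm. In TPM, 3 were higher (Myof, Fn1 and Prom1), 3 lower (Bche, Fbln2 and Crybg1) and 2 overlapped (Car4 and Cachd1), where 13.2% and 33.3% of genes were higher and lower, whereas in anterior pituitary all 8 were higher in TPM too (25.8% and 14.6% of genes). The fit over all genes called 2 of the 8 higher in posterior pituitary (background 1.25% higher and 0.541% lower) and 8 in anterior pituitary (background 0.441% higher and 0.0167% lower). The choice of genes used both contrasts, and nothing is read from these counts.

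**Figure D2:**
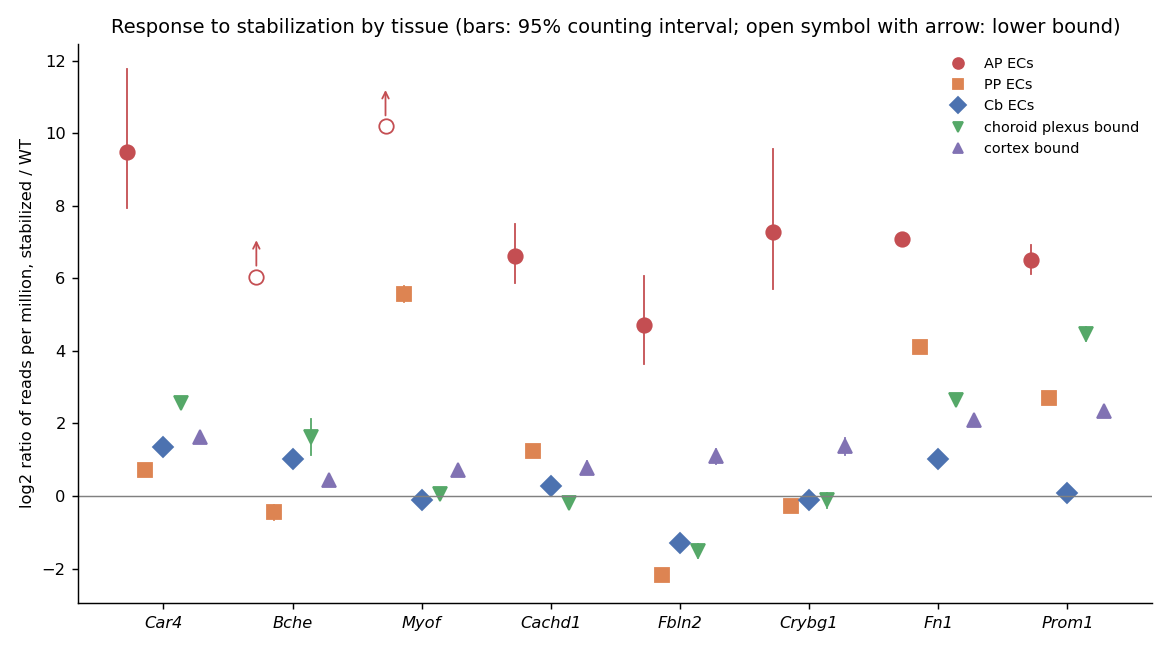
Log2 ratio of rpm, stabilized over WT (vertical axis), for each gene in ECs of anterior pituitary (AP), posterior pituitary (PP) and cerebellum (Cb) and in bound RNA of choroid plexus and cortex. Bars are 95% counting intervals and open symbols with arrows are lower bounds against 3 reads. The AP symbol is the highest for every gene, from 4.71 for Fbln2 to at least 10.19 for Myof, and the PP, Cb and choroid plexus symbols of Fbln2 lie under 0.

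After stabilization, 7 of the 8 genes were in rpm still lower in both anterior than in both posterior libraries, at a median of 36.3% of the stabilized posterior level (6.51 to 51.4%), and the remaining gene, Bche, overlapped. Compared with WT posterior pituitary, the stabilized anterior level was lower for 4 genes, higher for 3 and overlapping for 1. For those 7 genes a larger fold in the anterior lobe came with both a lower WT level and a lower stabilized level in rpm. In TPM, 5 of the 8 were lower in both stabilized anterior libraries and 3 (Bche, Cachd1 and Crybg1) overlapped. The choice of genes used these groups of libraries, and the share of all genes separated in these ways is not given here. The counts between the lobes are therefore a description of the 8 genes only.

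WT cerebellum ECs set the reference for a vessel with a barrier. There Fn1 was at 2837 and 3560 rpm, Prom1 at 1466 and 1276 rpm and Car4 at 852 and 738 rpm. By length-corrected TPM, Car4 was at 1482 and 1147, Fn1 at 1218 and 962 and Prom1 at 752 and 789, so that Car4 and Fn1 overlapped and Prom1 was below both. The WT anterior pituitary level was a median of 0.139% of the WT cerebellum level (0 to 0.395%). In stabilized anterior pituitary ECs all 8 genes remained below both WT cerebellum libraries, at a median of 19.3%. The share of all genes below WT cerebellum in this way is not given here, so the count describes the 8 genes only. In rpm Myof came nearest, at 49.7%, followed by Cachd1 at 39.3%, Crybg1 at 31.9% and Fn1 at 30.1%. By mean TPM Myof was nearest too, at 41.4%, but Crybg1 followed at 31.5%, then Cachd1 at 23.0% and Fn1 at 22.0%. Replicates lay far apart for Cachd1, at 44.1 and 9.12 TPM in WT cerebellum and 8.75 and 3.50 TPM in stabilized anterior pituitary. Stabilized anterior values of Myof (14.3 and 5.51 TPM) and Crybg1 (0.944 and 0.374 TPM) were wide apart as well, so the order by TPM is uncertain. Fbln2 stood at 8.43%, Prom1 at 6.01%, Car4 at 4.41% and Bche at 2.50% in rpm. By TPM Prom1 was at 6.48%, Car4 at 4.02%, Fbln2 at 3.02% and Bche at 1.83%. Stabilized replicate 1 held less Prom1 (30.4 against 69.5 TPM) and Bche (0.179 against 0.828 TPM) than replicate 2, the library of conflicting labels. Without replicate 2 the shares of these genes are therefore lower. In stabilized posterior pituitary ECs the median was 75.7% in rpm, with Myof (145%), Fbln2 (130%) and Fn1 (121%) above the cerebellum mean and Bche at 6.21%. In TPM all 8 genes had means below that of WT cerebellum in both lobes. In posterior pituitary Myof stood at 89.4% and Fn1 at 85.3% of it, overlapping the cerebellum libraries, and Fbln2 at 38.8%, below both.

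**Figure D3:**
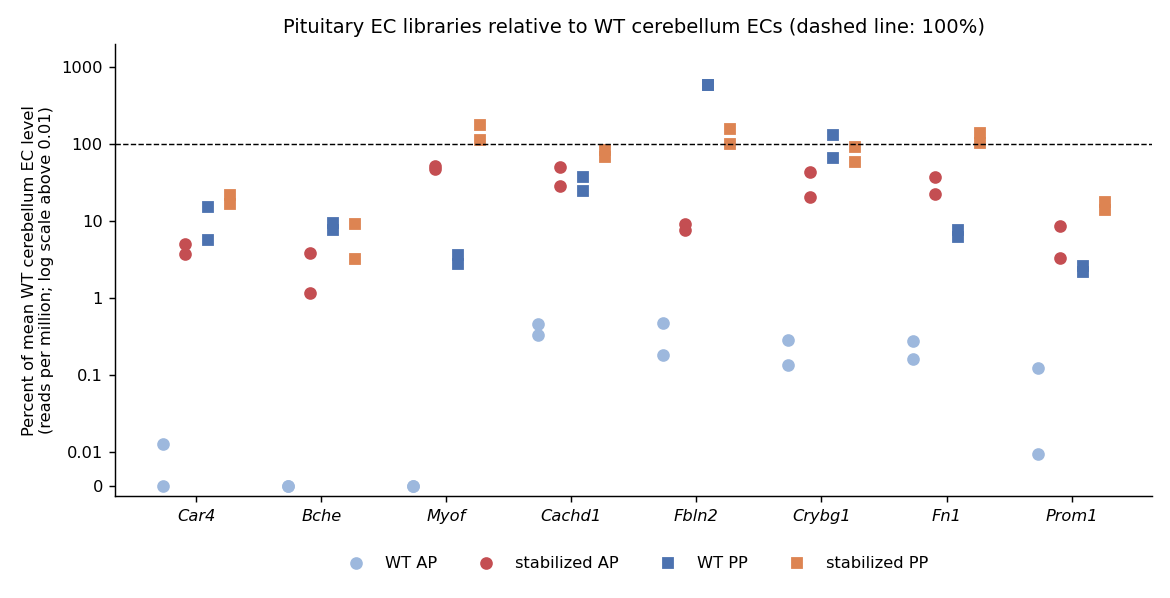
Level of each gene in each pituitary EC library as a percent of the mean WT cerebellum EC level (vertical axis, rpm, log scale above 0.01 and linear below; 2 libraries per group, the dashed line at 100%). WT anterior pituitary (AP) points lie under 1% for all 8 genes, and stabilized AP points lie between them and 100%.

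The reads differed in kind as well as in number. Salmon assigns reads to annotated transcripts, which include transcripts with retained introns that encode no protein. In WT posterior pituitary, all 164 Myof reads were assigned to retained-intron transcripts, so that on protein-coding transcripts alone stabilized cells were at least 2319-fold higher there and at least 916-fold higher in anterior pituitary. Both are lower bounds, so that no order of the lobes can be read for Myof on coding transcripts. In WT anterior pituitary, 1.2 of 55 Prom1 reads and 66.1 of 432 Fn1 reads were on protein-coding transcripts, and the anterior ratio on these alone was 3601 for Prom1 (774 to 170464) and 664 for Fn1 (523 to 861). In stabilized anterior pituitary, 79.7% and 89.3% of Prom1 reads and 67.1% and 79.7% of Fn1 reads were on protein-coding transcripts. The libraries do not mark strand, and exons on the opposite strand overlap Fn1 (Apol7d), Prom1 (Gm16401) and Crybg1 (Rtn4ip1 and Gm10812), so that reads of these pairs cannot be told apart where they overlap.

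GFP-negative cells of the same tissues, which hold the parenchyma, did not show the anterior pituitary pattern. Stabilized and WT anterior pituitary GFP-negative libraries overlapped in rpm for all 8 genes, where 17.7% of genes were higher and 24.4% lower without overlap, and in TPM for 7, with Fbln2 lower (15.0% and 26.9% of genes). The edgeR test called 0 of 8 there, with 0 at an unadjusted p under 0.05 and 0 called by DESeq2, where 0.0357% of 19612 genes were called higher and 0.00510% lower. WT levels were, for Crybg1, 9.51 and 6.10 rpm, for Myof, 14.9 and 5.94 rpm, and for Bche, 29.8 and 12.5 rpm. The WT anterior ECs were lower than these parenchymal cells for 5 genes and overlapped them for 3. In rpm, stabilized anterior ECs were higher than the WT parenchymal cells for 4 genes (Car4, Myof, Fn1 and Prom1). They were lower for 1 (Bche) and overlapped for 3 (Cachd1, Fbln2 and Crybg1). The share of all genes separated in these ways is not given here. In posterior pituitary GFP-negative cells edgeR also called 0 of 8, with 1 at an unadjusted p under 0.05 and 1 called by DESeq2 (Fn1, from 0.0577 and 1.195 to 9.72 and 4.79 rpm), where 0.0867% of genes were called higher and 0.0459% lower. Fn1 and Prom1 (0.0288 and 0.380 to 2.15 and 0.929 rpm) did not overlap there, where 18.9% of genes were higher and 25.6% lower in that way. In TPM these 2 were higher as well, and Fbln2 and Crybg1 were lower (15.6% and 31.7% of genes). Mural markers in the same cells went from 5.22 to 21.7 up to 27.8 to 46.6 summed TPM (3 of 9 called higher, median log2 fold change 2.71), and their part in the values of Fn1 and Prom1 was not tested.

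In cerebellum, WT GFP-positive cells exceeded GFP-negative cells for 6 of 8 genes by edgeR, in a contrast that the choice of genes did not use, from a fit of all 24 sorted libraries that includes the pituitary ECs (background 4.46% higher and 6.89% lower of 21343). The log2 fold change was 6.64 for Prom1 (SE 1.19, adjusted p = 0.00106), 5.99 for Car4 (SE 1.22, adjusted p = 0.00292) and 5.28 for Fn1 (SE 0.91, adjusted p = 7.35e-04). It was 4.11 for Crybg1 (SE 1.07, adjusted p = 0.0164), 3.06 for Fbln2 (SE 0.81, adjusted p = 0.0182) and 2.84 for Bche (SE 0.65, adjusted p = 0.00739). The calls of Crybg1 and Fbln2 each held in 8 of 10 alternatives (adjusted p up to 0.143 and 0.0780) and were lost without WT GFP-negative replicate 1, that of Fbln2 also without replicate 2 and that of Crybg1 also in a fit of only the groups compared. Cachd1 and Myof did not pass: WT GFP-negative cells held 54.99 and 64.0 rpm of Cachd1, which overlaps the 59.5 and 56.4 rpm of the ECs, and 3.02 and 26.0 rpm of Myof. Cerebellar GFP-negative libraries of the stabilized mice were lower than WT without overlap for 6 of 8 genes and higher for 1, where 24.4% and 11.2% of genes were so, and edgeR called Fbln2 lower (background 0.133% higher and 0.627% lower), with 149 and 112 reads in WT and 0 in both stabilized libraries, at least 40.02-fold lower against 3 reads (edgeR adjusted p = 0.0440, which ranged from 2.88e-04 to 0.426 over 10 alternatives). Crybg1 also had 0 reads in both stabilized libraries, after 10 and 69 reads in WT. In TPM, 3 genes were lower (Fbln2, Crybg1 and Prom1) and 1 higher (Car4), where 28.6% and 6.11% of genes were so. Fibroblast markers went from 58.8 to 104 down to 15.03 to 44.6 summed TPM in the same libraries (2 of 6 called lower), endothelial markers from 20.6 to 26.0 down to 2.23 to 11.4 (0 of 10 called by edgeR, 1 at an unadjusted p under 0.05 and 0 by DESeq2), and neuron markers from 250.02 to 324 up to 766 to 813 (2 of 5 called higher). Their part in the values of Fbln2 and Crybg1 was not tested.

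With stabilization in cerebellum ECs, 4 of the 8 genes were higher and 1 lower without overlap, where 12.8% and 22.1% of genes were so in rpm. In TPM 2 were higher (Car4 and Fn1) and 1 lower (Fbln2), where 10.6% and 22.4% of genes were so. The edgeR test called 0 of 8 (background 0.0670% higher and 0.581% lower of 17915), with 3 at an unadjusted p under 0.05 and 2, Car4 and Fn1, called higher by DESeq2. Car4 went from 852 and 738 to 2240 and 1757 rpm, a log2 fold change of 1.33 (SE 0.43, adjusted p = 0.306). Fn1 went from 2837 and 3560 to 6846 and 5876 rpm, 0.98 (SE 0.37, adjusted p = 0.401). Bche (127 and 137 to 323 and 198 rpm) and Cachd1 (59.5 and 56.4 to 74.3 and 64.1 rpm) were likewise higher without overlap. Fbln2 went down without overlap, from 35.2 and 35.4 to 6.37 and 24.1 rpm, -1.19 (SE 0.53, adjusted p = 0.502). Its log2 fold change ran from -3.10 to -0.51 over 10 alternatives. Of 6 fibroblast markers, 1 was called lower and 0 higher in these cells (median log2 fold change -3.68). Their part in the value of Fbln2 was not tested. Myof, Crybg1 and Prom1 overlapped, and the ratio of Prom1 was 1.05.

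RiboTag libraries, which the choice of genes did not use, cover a fenestrated bed, the choroid plexus, and the barrier vessels of the cortex. All 8 genes had reads in all 8 bound libraries. In WT cortex, edgeR called 7 of 8 genes higher in bound than in input RNA (background 7.46% higher and 4.18% lower of 18241), all but Cachd1, with log2 fold changes from 2.15 for Bche (SE 0.60, adjusted p = 0.0294) to 3.70 for Crybg1 (SE 0.61, adjusted p = 0.00107). The call of Bche held in 6 of 10 alternatives (adjusted p up to 0.151). In WT choroid plexus 5 of 8 were higher in bound RNA (background 8.67% higher and 6.64% lower), with Car4 first at 3.91 (SE 0.41, adjusted p = 3.92e-05), followed by Fbln2, Prom1, Fn1 and Crybg1 at 2.90, 2.85, 2.67 and 1.73. The call of Crybg1 held in 5 of 10 alternatives (adjusted p up to 0.265). The median log2 fold change of all genes in the cortex comparison was -0.33, and these values stand above it. Endothelial markers were called higher in bound RNA for 10 of 10 genes in both tissues. Macrophage and leukocyte markers were also higher in bound RNA, from 27.6 to 30.4 summed TPM in input to 699.5 to 1081 in bound RNA of cortex (7 of 8 called, median log2 fold change 4.09) and from 8.97 to 9.55 to 99.03 to 140.1 in choroid plexus (6 of 8 called, median 2.43). The part of those cells in the values of the 8 genes was not tested.

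The WT levels differed between the beds for 7 of the 8 genes. In WT bound RNA, cortex exceeded choroid plexus for Bche (log2 3.80, SE 0.68, adjusted p = 0.00271), Prom1 (2.63, SE 0.40, adjusted p = 0.00105) and Car4 (1.91, SE 0.33, adjusted p = 0.00236) in the edgeR fit of 8 bound libraries, where 15.8% of 16775 genes were so. Cortex was lower for Cachd1 (-3.32, SE 0.27, adjusted p = 5.29e-05), Myof (-2.75, SE 0.30, adjusted p = 1.97e-04), Fbln2 (-2.67, SE 0.33, adjusted p = 3.54e-04) and Crybg1 (-1.82, SE 0.51, adjusted p = 0.0236), where 13.9% were so. With the length correction Fbln2 was at -1.26 (adjusted p = 0.197) and lost its call, and its TPM overlapped (7.32 and 2.21 in cortex, 4.50 and 5.46 in choroid plexus). Crybg1 was called in 8 of 10 alternatives (adjusted p up to 0.0939), not with the length correction or without WT cortex replicate 2. Fn1 did not pass, at 447 and 207 rpm in cortex and 157 and 186 rpm in choroid plexus. Cachd1 was at 161 and 184 rpm in choroid plexus input, which overlaps the 163 and 155 rpm of bound RNA. Fibroblast markers were called lower in cortex than in choroid plexus bound RNA for 5 of 6 genes, and neuron (4 of 4 tested) and astrocyte markers (4 of 4) higher. The bound RNA of choroid plexus still held epithelial markers, at 19223 to 20311 summed TPM in WT and 11941 to 13656 in stabilized libraries, while endothelial markers went from 455 to 546 up to 750 to 1126. The part of these markers in the values of both beds was not tested.

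In choroid plexus bound RNA Prom1, Fn1 and Car4 were called higher with stabilization and Fbln2 lower, the last with a call that most alternatives lost. Prom1 went from 19.6 and 11.3 to 374 and 301 rpm, a log2 fold change of 4.26 (SE 0.42, edgeR adjusted p = 0.00341). Fn1 went from 157 and 186 to 889 and 1243 rpm, 2.45 (SE 0.36, adjusted p = 0.0156), and Car4 from 31.5 and 38.8 to 209 and 208 rpm, 2.37 (SE 0.34, adjusted p = 0.0147). Fbln2 went from 65.5 and 73.8 to 27.0 and 21.8 rpm, -1.71 (SE 0.32, adjusted p = 0.0479). Its log2 fold change ran from -1.78 to -0.57 over 10 alternatives. Its TPM overlapped, at 4.50 and 5.46 in WT and 4.78 and 1.72 with stabilization. The fit called 3 of 8 higher (background 0.656%) and 1 lower (background 0.197%). Myof (211 and 193 against 215 and 203 rpm), Cachd1 (163 and 155 against 154 and 124 rpm) and Crybg1 (28.5 and 27.0 against 32.2 and 18.9 rpm) did not pass. Bche did not pass at 4.92 and 1.45 against 5.75 and 13.7 rpm. Without overlap, 4 genes were higher and 2 lower, where 24.8% and 19.5% of genes were so in rpm, and in TPM 3 were higher (Car4, Fn1 and Prom1) and 3 lower (Myof, Cachd1 and Crybg1), where 16.1% and 24.7% were so. Without WT replicate 1 only Prom1 kept its call. Car4 was called in 8 of 10 alternatives and lost its call with the length correction as well (log2 1.69; adjusted p up to 0.133 over the alternatives), and Fbln2 was called in 3 of 10 alternatives (adjusted p up to 0.797).

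The same 3 genes rose in cortex bound RNA (3 of 8, background 3.65% higher and 2.67% lower of 16775). Prom1 went from 136 and 58.2 to 441 and 469 rpm, 2.23 (SE 0.38, edgeR adjusted p = 0.0114), Fn1 from 447 and 207 to 1323 and 1304 rpm, 2.01 (SE 0.35, adjusted p = 0.0126), and Car4 from 185 and 84.4 to 440.4 and 350 rpm, 1.56 (SE 0.33, adjusted p = 0.0255). Without overlap, 7 of 8 were higher and 0 lower, where 27.6% and 26.3% of genes were so in rpm. In TPM 2 were higher, Fn1 and Prom1, and 3 lower, where 10.1% and 51.9% of genes were so. The lower ones were Myof (14.1 and 10.5 against 5.68 and 6.54 TPM), Cachd1 (5.84 and 7.95 against 3.59 and 3.84 TPM) and Fbln2 (7.32 and 2.21 against 1.83 and 1.25 TPM). By TPM, Car4 was at 351 and 194 in WT and 267 and 217 in stabilized libraries, which overlap, and with a correction for transcript length the log2 fold change of Car4 was 0.84 and its call was lost. That of Fn1 was 1.53 (adjusted p = 0.0605), short of the threshold, and Fn1 was higher in TPM. Prom1 kept its call in 10 of 10 alternatives and was higher on both scales (73.2 and 44.1 against 367 and 364 TPM). Protein-coding transcripts held 3047.87 of its 3249 reads in WT but 3784.67 of 7823 with stabilization. The rise of Prom1 in cortex was therefore smaller on coding transcripts than on all transcripts. The difference between the choroid plexus and cortex responses was called for Fbln2 alone (background 0.864% higher and 1.28% lower), at -2.81 (SE 0.45, edgeR adjusted p = 0.0199), and it was 0.028 with the length correction. Endothelial markers in cortex bound RNA were at 380 and 1001 summed TPM in WT and at 801 and 940 with stabilization (2 of 10 called higher, median log2 fold change 0.82), and 4 of 12 basement membrane genes were called higher. Neuron markers went from 1073 to 1262 down to 287 to 334 TPM (1 of 4 tested called lower). Their part in the cortex values was not tested.

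**Figure D4:**
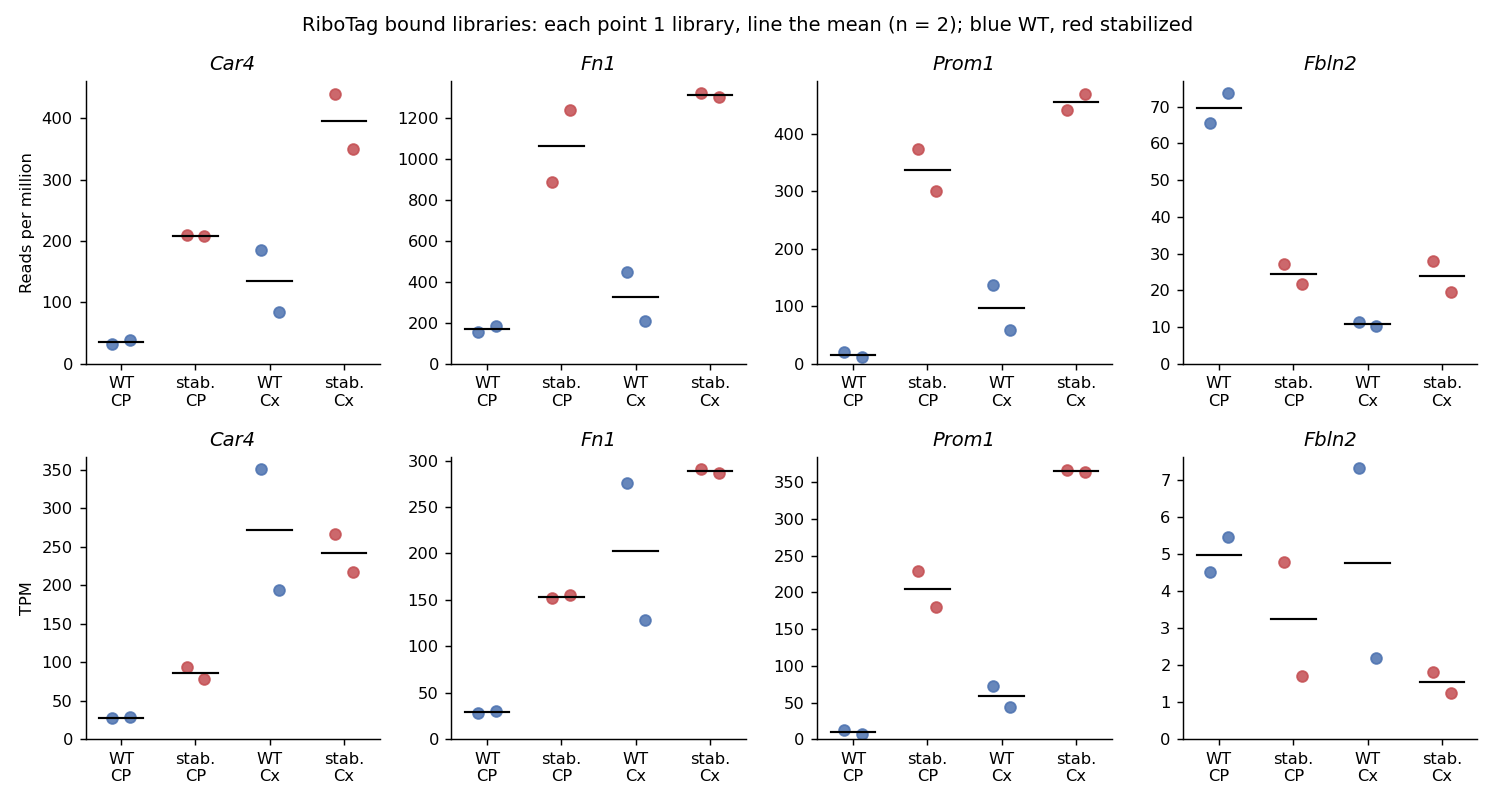
Car4, Fn1, Prom1 and Fbln2 in RiboTag bound RNA of choroid plexus (CP) and cortex (Cx), in rpm (upper row) and TPM (lower row, both axes from 0), with 1 point per library, a line at the mean of 2 libraries, WT in blue and stabilized (stab.) in red. Prom1 is higher in stabilized libraries in every panel, whereas Car4 in cortex overlaps between genotypes in TPM, at 351 and 194 against 267 and 217.

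In choroid plexus input Fn1 rose from 18.3 and 21.3 to 98.2 and 110 rpm (log2 2.28, SE 0.17, edgeR adjusted p = 0.0158; 1 of 8 called, background 0.0995% higher and 0.00622% lower), and 4 genes were higher and 0 lower without overlap (29.0% and 12.4% of genes). In TPM 3 were higher (Car4, Fn1 and Prom1) and 1 lower (Fbln2), where 25.5% and 12.0% were so. The call of Fn1 held in 6 of 11 alternatives (log2 from 2.18 to 2.85, adjusted p up to 0.167) and was lost with the replicate block, with the length correction and without either WT replicate or stabilized replicate 2. Prom1 (3.06, SE 0.43, adjusted p = 0.0722) and Car4 (1.87, SE 0.43, adjusted p = 0.290) missed the threshold. In cortex input Fbln2 was called higher (0.943 and 0.849 to 1.69 and 3.17 rpm, adjusted p = 0.0329; background 8.44% higher and 3.38% lower; 2 genes were higher and 2 lower without overlap, where 26.0% and 38.4% of genes were so), on 38 and 54 reads over the groups, and at -0.82 on the log2 scale in the length-corrected fit. In TPM 6 of 8 genes, Fbln2 among them, were lower there and 0 higher, where 78.1% and 5.58% of genes were so. The call of Fbln2 in cortex input held in 4 of 10 alternatives. Choroid plexus epithelium (2 of 6), macrophage and leukocyte (2 of 8) and fibroblast markers (1 of 6) were also called higher there, with 0 lower. Their part in the value of Fbln2 was not tested.

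In chromatin, 52 regions within 50 kb of the 8 genes held a peak in both replicates of at least one group, and a region counted as gained where it held a peak shared by both stabilized libraries that overlapped no peak of either WT library, and as lost in the reverse case (peaks of a fold enrichment over 2 and -log10 q over 2). In anterior pituitary 10 regions were gained and 1 lost, in posterior pituitary 15 gained and 1 lost, and in cerebellum 10 gained and 1 lost. Thresholds over 4 gave 11, 7 and 4 gained regions in these tissues, and leaving out 1 library gave 10 to 14, 16 to 34 (34 without stabilized replicate 1) and 13 to 15. The number lost in anterior pituitary was 7 without WT replicate 1. A gained peak lay near 6 of 8 genes in anterior pituitary (20.4% of 17915 genes tested), near 8 of 8 in posterior pituitary (43.7%) and near 7 of 8 in cerebellum (36.6%). A lost peak lay near 1 gene in each tissue, where 13.4%, 2.81% and 4.23% of genes had one. The window takes in the gene body, which spans from 8259 bases (Car4) to 252546 bases (Cachd1) in the 8 genes. A longer gene has a wider window, and these shares of all genes are not matched for gene length. Of the gained regions, 8 of 10 in anterior pituitary and 8 of 15 in posterior pituitary overlapped a WT cerebellum EC peak, against 20.4% and 31.0% of all gained peaks in these lobes. The shares among all peaks are the background, and no test was made.

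The windows printed above come from these regions. Near Car4 (chr11:84956072-84956830), fold enrichment was 6.29 and 5.10 in WT cerebellum, no peak in WT anterior or posterior pituitary, 4.47 and 6.22 in the stabilized anterior lobe and 4.58 and 3.36 in the stabilized posterior lobe. The Myof intron (chr19:38026214-38027342) followed the same pattern, at 6.74 and 5.04 in WT cerebellum, 8.04 and 4.88 in the stabilized anterior lobe and 5.31 and 4.91 in the stabilized posterior lobe. The Cachd1 intron with a core (chr4:100795425-100795973) was gained in anterior pituitary, at 5.12 and 4.94, but in posterior pituitary only replicate 2 had a peak, at 2.74. The second Cachd1 intronic region (chr4:100811087-100812067), with no core, was gained in both lobes, the anterior at 10.5 and 9.49 and the posterior at 5.43 and 5.75, and was at 5.60 and 2.81 in WT cerebellum. The Bche intron (chr3:73673070-73673970) had the highest WT cerebellum value of these, 16.6 and 18.9, and was gained in both lobes, the anterior at 7.56 and 5.20 and the posterior at 4.56 and 5.09. In Prom1 an intronic region (chr5:44050102-44050665) and the region over the start (chr5:44100922-44102170) were gained in both lobes, the latter at 7.03 and 6.25 in the anterior lobe and at 10.04 and 5.71 in the posterior lobe, where WT replicate 1 had a separate peak of 3.53 in the same region that did not overlap the gained one.

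The Fn1 start (chr1:71652665-71654005) was open in every library, at 7.21 and 7.02 in the WT anterior lobe and at 15.995 and 15.9 after stabilization, and no region near Fn1 was gained there. Crybg1 gained none in anterior pituitary either and lost 1, an intronic region (chr10:43977363-43977783) at 6.77 and 3.80 in WT. Near Fbln2, an exonic region with its summit 355 bases after the start (chr6:91212670-91212944), at 4.02 and 3.98 in WT posterior pituitary, was lost there with stabilization. In the same lobe 2 regions near Fbln2 were gained, an exonic one with its summit 1637 bases after the start (chr6:91213534-91214560), at 3.27 and 4.00, and an upstream one (chr6:91181289-91181707), at 3.06 and 3.79. An intronic region (chr6:91218352-91218839) was gained in anterior pituitary and cerebellum.

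**Figure D5:**
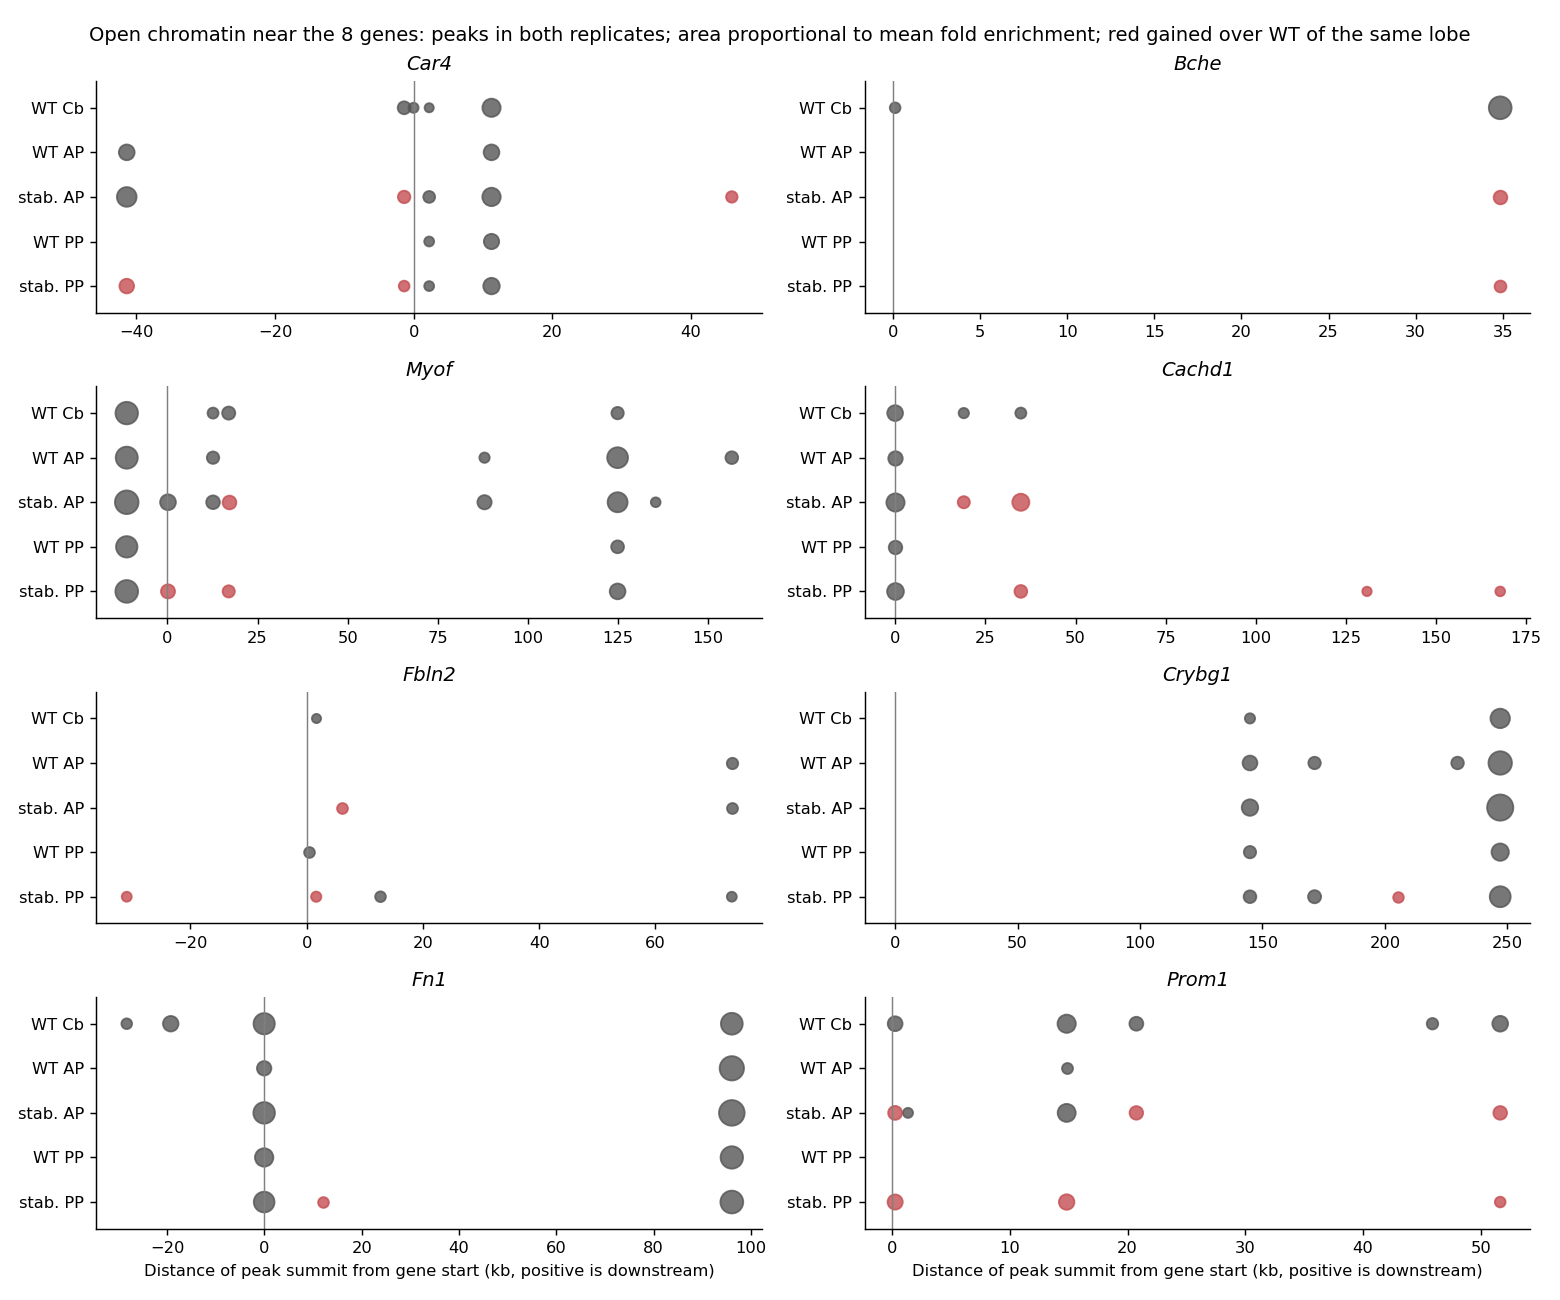
Position of ATAC-seq peak summits relative to the start of each gene (horizontal axis, kb, positive downstream) in WT cerebellum (Cb) and WT and stabilized (stab.) anterior (AP) and posterior (PP) pituitary ECs. Dots are peaks in both replicates, with area proportional to mean fold enrichment, and red dots are gained over WT of the same lobe. Red dots appear in stab. AP for 6 genes, and none for Fn1 and Crybg1.

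A TCF/LEF core lay within 100 bp of the summit in 3 of 10 gained regions in anterior pituitary (21.7% of 2767 gained peaks overall), 3 of 15 in posterior pituitary (14.95% of 7437) and 1 of 10 in cerebellum (12.9% of 5093). The 3 in anterior pituitary are the Car4, Myof and Cachd1 windows, and the 3 in posterior pituitary the Car4 and Myof windows and another intronic Cachd1 region. With so few regions these shares are a description. RefSeq promoters (250 bases before to 50 after a start, GRCm38) were matched for 7 of the 8 genes, and none of the 10 entries holds TTCAAAG or ATCAAAG on either strand, where 8.65% of 32851 promoters hold one.

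Relatives of the 8 genes from the same families, 37 genes in all, of which 23 were tested in GFP-positive cells, are given for comparison. The edgeR test called 0 of 23 in anterior pituitary (1 at an unadjusted p under 0.05, Fbln1, also called by DESeq2), 0 in posterior pituitary (5 and 2) and 0 in cerebellum (4 and 3). Car2, the cytosolic carbonic anhydrase, was at 8.98 ± 3.40 TPM (SD, n = 2) in WT anterior pituitary and at 9.78 ± 3.55 TPM with stabilization. Dysf, the ferlin dysferlin, was at 109.9 ± 36.5 TPM in that WT group and at 135 ± 60.6 TPM with stabilization, and Myof had 0 reads in that WT group. Crybg3 was at 26.6 ± 4.58 TPM and 25.3 ± 2.85 TPM, and Fbln5 at 10.6 ± 5.02 TPM and 7.65 ± 1.69 TPM.

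Among 13 receptors for fibronectin, 0 were called in anterior pituitary by edgeR (1 at an unadjusted p under 0.05 and 1 by DESeq2) and 1 rose in posterior pituitary (background 1.25%). This was the integrin subunit Itga4, with a log2 fold change of 2.44 (SE 0.56, adjusted p = 0.0490) in posterior and 2.19 (SE 0.55, adjusted p = 0.160) in anterior pituitary, and the difference between the lobes was not called for it. Of 12 basement membrane genes, 0 were called in anterior pituitary by edgeR (1 at an unadjusted p under 0.05 and 0 by DESeq2), whereas Col4a1 and Col4a2, the collagen IV chains, fell in posterior pituitary by 2.25 and 2.17 on the log2 scale (adjusted p = 0.0280 and 0.0252; background 0.541%), in the libraries where 2 of 10 endothelial markers were also called lower. In anterior pituitary Col4a1 and Col4a2 stood at -0.23 and -0.13. Of 12 general Wnt targets, 4 rose in anterior (Nkd1, Notum, Tcf7 and Tnfrsf19) and 5 in posterior pituitary (these and Axin2, log2 5.73, SE 1.16, adjusted p = 0.0291, against 3.12, SE 1.02, adjusted p = 0.404 in anterior). In both lobes Notum, a secreted Wnt inhibitor, and Tnfrsf19 had 0 reads in WT, and stabilized levels were 2.36 ± 0.00371 TPM of Notum in anterior and 11.1 ± 3.83 TPM in posterior pituitary.

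Over the 20 RNA groups, the genes whose mean log2(TPM + 1) was most like the average of the 8 were Foxf1 and Fzd6 (Pearson r = 0.91 for each), Edn1 (0.90) and Foxf2, Bmx, Vwf and Fmo2 (0.89 for each), among 12716 genes. The groups share tissues and depths, and the values carry no test. The 8 genes were themselves unlike in pattern, with a median r of 0.45 over their 28 pairs, the highest between Fn1 and Prom1 (0.96).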

How the data were processed

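For each of 40 RNA libraries the authors deposited Salmon 0.10.2 output (version from the submitters' processing notes), made of an estimated count, not normalized, and a TPM value, scaled within the library, for each transcript. For each of 12 ATAC-seq libraries the authors deposited the peaks that MACS2 2.1.1.20160309 called in that library alone, with fold enrichment (a ratio to local background), −log10 q and −log10 p, and a score and p-values that were not used. Transcripts were added up per gene using the GENCODE M21 annotation (GRCm38), and rounded gene counts entered edgeR 4.0.16 in R 4.3.3 (TMM, filterByExpr, quasi-likelihood fit with 1 coefficient per group), on 17915 genes for 12 GFP-positive, 19612 for 12 GFP-negative, 21343 for all 24 sorted, 16775 for 8 bound, 16085 for 8 input and 18241 for 16 RiboTag libraries. A gene was called at a Benjamini-Hochberg adjusted p under 0.05 over all genes tested and at least 2-fold. The SE is the log2 fold change divided by the square root of F. The study used EBSeq, which was not run. The procedure was tested on simulated data.

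Read ratios have exact 95% intervals for counting error, and 3 counts over a group stand for a count of 0. Values in rpm divide by all gene reads of the library. Peaks with a fold enrichment over 2 and −log10 q over 2, off the mitochondrial genome, were taken as shared at 1 bp of overlap, and near a gene within 50 kb of its body. Python 3.11.15, pandas 2.3.3, numpy 2.4.6, scipy 1.17.1, pysam 0.24.0 and matplotlib 3.10.9 were used. All 8 genes passed the filter in every fit. The 8 genes and the lists of relatives, receptors, basement membrane genes, Wnt targets and cell type markers were chosen with earlier results of these data known. Named beside the 8 are genes of those lists past the threshold in a pituitary comparison, otherwise those with the highest TPM, and genes most like the 8. Alternatives were RLE normalization, DESeq2 1.42.0, no filter, a replicate block, a fit of only the groups compared, an effective-length offset, leaving out each library, protein-coding transcripts only, stricter peak thresholds (over 4), a window of 100 kb and a search of whole peaks. The interaction of choroid plexus and cortex was added after seeing the data.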

Additional observations from a re-analysis of the deposited data

Results flagged for a closer look

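Some responses of a gene went in opposite directions in different tissues. For Fbln2, the choroid plexus response in bound RNA was lower than the cortex response by a log2 difference of -2.81 (SE 0.45, edgeR adjusted p = 0.0199, a test of the difference itself), with a range of adjusted p from 9.31e-05 to 0.9999 over 14 alternatives. The opposite directions hold for counts and rpm. In TPM Fbln2 was lower in cortex bound RNA too, at 7.32 and 2.21 in WT against 1.83 and 1.25 with stabilization.

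The other differences were not tested, and rest on every library of a tissue moving the opposite way from every library of the other tissue. They are differences of the changes in log2(rpm + 0.1). In GFP-positive cells, Fbln2 was higher with stabilization in anterior pituitary and lower in posterior pituitary (a difference of 6.10) and cerebellum (5.37). In GFP-negative cells, Fn1 (5.21) and Prom1 (3.70) were higher in posterior pituitary and lower in cerebellum. In input RNA, Myof was higher in choroid plexus and lower in cortex, by 0.75. In TPM the opposite directions of Fbln2 and Prom1 were seen as well, whereas Fn1 overlapped in cerebellum GFP-negative cells and Myof overlapped in choroid plexus input.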

How the results depend on the processing

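Numbers of the 8 genes called moved with the processing as follows, the reported number first. In cerebellum ECs the number was 0, and 2 with no filter on low counts or with DESeq2. In posterior pituitary ECs it was 2, and 6 with no filter, 6 with DESeq2 and 4 with the replicate block. In anterior pituitary ECs it was 8, and 4 in a fit of only the groups compared. For the anterior minus posterior response it was 6, and 3 with the length offset. In cerebellum GFP-negative cells it was 1, and 2 with no filter or DESeq2 and 0 with the length offset or only the groups compared. In posterior pituitary GFP-negative cells it was 0, and 1 with no filter or DESeq2. In choroid plexus bound RNA it was 4, and 2 with the length offset, and in cortex bound RNA 3 and 1. For the difference between these responses it was 1, and 2 with no filter or DESeq2 and 0 with the length offset. In choroid plexus input it was 1, and 3 with no filter or DESeq2, 2 with only the groups compared and 0 with the length offset. In cortex input it was 1, and 0 with only the groups compared. The cause was not tested.

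Leaving out each library in turn gave 0 to 1 in cerebellum ECs, 8 in anterior pituitary ECs, 2 to 4 in posterior pituitary ECs, 5 to 8 for the anterior minus posterior response, 0 to 2 in cerebellum GFP-negative cells, 0 to 1 in posterior pituitary GFP-negative cells, 4 to 6 for WT cerebellum ECs against GFP-negative cells, 1 to 3 in choroid plexus bound RNA (1 without WT replicate 1), 2 to 4 in cortex bound RNA, 0 to 2 for the difference between these, 0 to 1 in either input, 7 for WT cortex against choroid plexus (6 to 7 over the other settings), and for bound against input RNA 4 to 5 in WT choroid plexus (5 reported) and 6 to 7 in WT cortex (7 reported). Where 1 sample of a group was left, it is assumed to vary like the other groups.

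Same-numbered replicates showed correlations of their deviations of -0.04 to 0.09, and -0.21 in choroid plexus input. Per the study's methods, input was taken from the homogenates used for the pull-down and GFP-positive and GFP-negative cells were both sorted from dissociated tissue, but whether equal numbers mark the same homogenate or sort is not given in the sources used here. With the replicate block the numbers of the 8 genes called were the reported 5 and 7 for bound against input RNA (choroid plexus, cortex), 6 for WT cerebellum ECs against GFP-negative cells and 6 for the anterior minus posterior response. With the block the number called became 0 in choroid plexus input and 0 in cortex input, and 1 in choroid plexus input with the numbers crossed.

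Counts of genes without overlap changed between rpm and TPM, an alternative chosen after seeing the data, as given beside them. Directions turned for Fbln2 with the length offset, in the choroid plexus minus cortex response (0.028) and in cortex input (-0.82). In posterior pituitary ECs the log2 ratio turned to 0.15 for Bche without stabilized replicate 2 (range -1.37 to 0.15), and for Crybg1 to 0.011 without stabilized replicate 1 and to 0.20 without WT replicate 2 (range -0.80 to 0.20). Over all genes, the number called in anterior pituitary ECs was 82, with a range of 58 to 498 over settings, in posterior pituitary ECs 321, with 110 to 1197, and for the anterior minus posterior response 23, with 14 to 448, and 27 to 615 leaving out a library.

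For peaks near the 8 genes, stricter thresholds left 4 gained and 0 lost in cerebellum and 7 gained and 0 lost in posterior pituitary, with a core in 1. A window of 100 kb gave 2 lost in anterior pituitary, and a search of whole peaks found a core in 5 gained regions in each lobe. Leaving out 1 library gave 13 to 15 gained and 1 to 2 lost in cerebellum, 10 to 14 gained and 1 to 7 lost in anterior pituitary (7 without WT replicate 1), and 16 to 34 gained and 1 to 2 lost in posterior pituitary (34 without stabilized replicate 1). Of the 10 genes most like the 8, 6 were among the 10 with either replicate alone. The few WT anterior pituitary reads limit the folds of Bche, Myof, Car4 and Crybg1 given there.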
